A study of Mus musculus with 6 samples.

Results

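The genes described here encode the parts of the primary cilium: the trains of intraflagellar transport, the BBSome, the transition zone and the proteins of nephronophthisis, a cystic kidney disease. They were chosen by name from a fixed list, and all 51 were found, with 1 row each, among the 20624 genes of the deposited RNA sequencing table. The table summarises 6 samples of mDCT15, a line of mouse kidney cells labelled as distal convoluted tubule, with 3 samples of cells in which *Pkd1* was edited by CRISPR/Cas9 (*Pkd1*-/-) and 3 of wild type cells. The paper's methods give the same medium for both, DMEM/F12 with serum, and do not say whether serum was depleted before RNA was taken. Total RNA was sequenced after removal of ribosomal RNA. The titles give the edited cells as *Pkd1*-/-, while the genotype label calls them a knockdown, and whether they descend from 1 clone is not given in the sources used here. The value used for each gene is the authors' mean of normalized counts over the 6 samples of both genotypes together. It has no SD and no n of its own, so the levels below describe the line as sequenced, no difference between genes could be set against the spread between samples, and *Pkd1*-/- and wild type cells were not compared here.

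The primary cilium is a single, non-motile antenna of the plasma membrane, built around microtubules that grow from the mother centriole. Motors carry IFT-B complexes, with IFT-A complexes and the BBSome attached, along these microtubules, and the transition zone at the base limits which membrane proteins enter. In kidney tubules the polycystins reside in this membrane, and mutations in many of the genes below cause kidney cysts, nephronophthisis, or Bardet-Biedl, Joubert or Meckel syndrome.

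A sequence that some of these genes may share was looked for first, because RFX transcription factors are known to act on ciliary genes through the X-box, a palindromic site. The search covered RefSeq promoter windows of GRCm38.p6, which run from 250 bases before the start site to 50 after it, for GTTNCC followed after 0 to 3 bases by GGNAAC. This pattern is its own reverse complement, so both strands were covered. Of the 46 cilium genes with a window, 6 held the pattern without a mismatch (13.0%). The share was 253 of the 27025 genes with a window in the mouse genome (0.936%). Among protein-coding genes with a window and a mean normalized count of at least 10 in these cells, it was 103 of 9505 (1.08%). The sites are shown because they carry this result. Capitals mark the match, and each stretch reads along its gene's own strand, 5′ to 3′. Coordinates come from placing the window on GRCm39.
Ahi1, chr10:20828459-20828488, plus strand: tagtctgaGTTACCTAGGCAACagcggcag
Bbs7, chr3:36667638-36667667, minus strand: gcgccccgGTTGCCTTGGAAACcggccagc
Ift57, chr16:49519589-49519618, plus strand: gccctgcgGTTGCCTGGTAACggtggggac
Mks1, chr11:87744009-87744038, plus strand: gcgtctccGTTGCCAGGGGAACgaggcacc
Tctn1, chr5:122402474-122402503, minus strand: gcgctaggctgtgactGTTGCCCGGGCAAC
Tctn3, chr19:40600794-40600823, minus strand: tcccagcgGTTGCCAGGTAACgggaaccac

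With 1 mismatch allowed in the fixed letters, 17 of the 46 genes held a match (37.0%), against 6.15% of all genes with a window and 7.89% of the protein-coding genes counted here. The matches were unevenly spread over the groups. All 10 genes of the MKS module of the transition zone that have a window held one, namely *Ahi1*, *B9d1*, *B9d2*, *Cc2d2a*, *Mks1*, *Tctn1*, *Tctn2*, *Tctn3*, *Tmem216* and *Tmem231*. In IFT-B the share was 3 of 10 (*Ift22*, *Ift52* and *Ift57*) and in the BBSome 3 of 7 (*Bbs1*, *Bbs4* and *Bbs7*). The 5 windows of IFT-A genes held 0. *Nphp4* was the 1 further gene. The stretches of *Bbs1*, *B9d1* and *Ift52*, each with 1 mismatch, are shown because their matches begin nearest to the start site, 2 bases after it, 6 before it and 7 before it.
Bbs1, chr19:4956633-4956662, minus strand: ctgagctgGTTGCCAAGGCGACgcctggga
B9d1, chr11:61395956-61395985, plus strand: taccgtctGTTTCCAAGACAACcgagagcc
Ift52, chr2:162859258-162859287, plus strand: atacagtcTTTACCGGGAAACgggccagcc
The 17 genes held 19 matches, of which 16 (84.2%) began within 100 bases of the start site and 15 (78.9%) had a spacing of 2 bases. Over all windows of the promoter table, the shares of 1995 matches were 59.0% and 43.5%. Outside the list, *Tmem107*, *Tmem138* and *Tmem237*, which encode further transition zone proteins, also held a match with 1 mismatch. They were 3 of 7 in a list of other nephronophthisis and Joubert syndrome genes. *Lztfl1* and *Ttc26*, 2 of 6 further IFT and BBS genes, held 1 without a mismatch. Matches with 1 mismatch were held by 4 of 11 genes of motile cilia (*Dnaic1*, *Dnaic2*, *Drc1* and *Tekt2*). They were also held by 2 of 5 distal appendage genes (*Cep83* and *Ttbk2*), 1 of 9 motor genes (*Kif17*) and 1 of 6 RFX genes (*Rfx2*). The windows of the 2 polycystin genes held 0. A match is a stretch of letters and was not tested for binding. *Anks6*, *Ift122*, *Ift80*, *Ift81* and *Tmem67* were not searched.

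**Figure D1:**
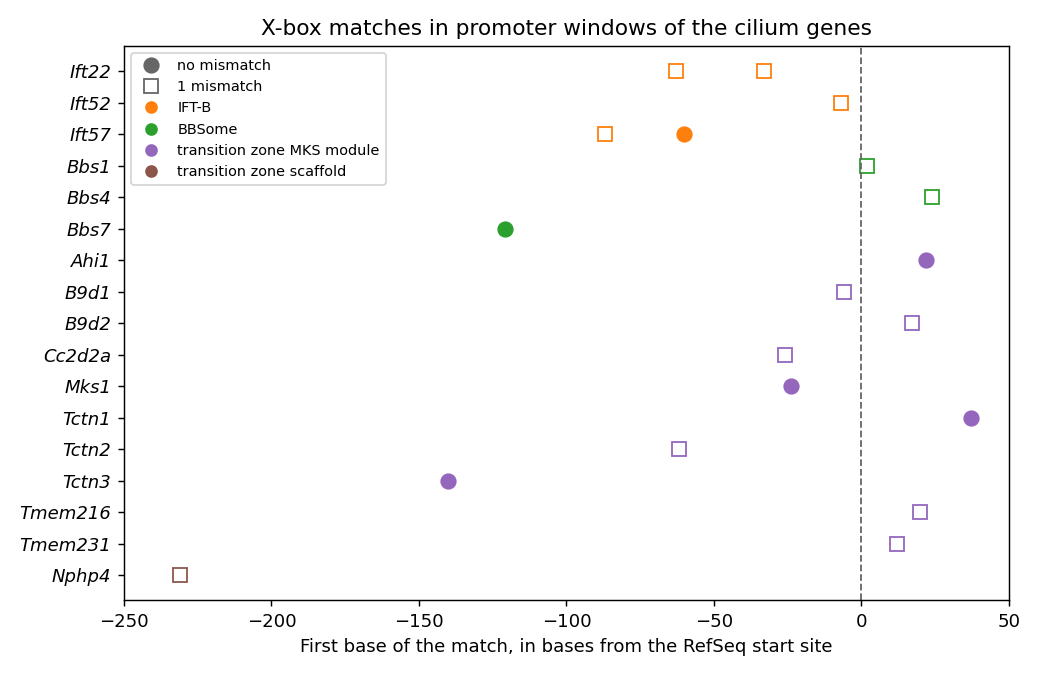
X-box matches in the promoter windows of the 17 cilium genes that held one. The horizontal axis gives the first base of each match in bases from the RefSeq start site (dashed line), filled circles have no mismatch, open squares have 1, and colours give the gene group. Of the 19 matches, 16 begin within 100 bases of the start site, and the *Nphp4* match, at -231, lies farthest from it.

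All 51 genes were detected. Their mean normalized counts ran from 47.3 for *Bbs10* to 2007 for *Tulp3*, with a median of 585. A mean of at least 100 was reached by 50 of them (98.0%), against 72.9% of the 13871 protein-coding genes of the table and 50.3% of all its genes. Because the list was drawn up with earlier results of these data known, detection and these shares are descriptions only. The mean counts are not corrected for length. The exons of the cilium genes had a median length of 8100 bases against 6545 in the reference set described next. Together the cilium genes made up 0.192% of the summed mean counts, which came to 1.67e+07 over all genes. The table gives no count of single samples, so the depth of each sample is unknown.

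A long transcript yields more reads than a short one, so levels were compared between genes after the mean was divided by the summed length of the gene's exons in kilobases (kb). The reference set was the 11835 protein-coding genes with a mean of at least 10, whose median was 97.3 normalized counts per kb. The cilium genes had a median level of 75.5 per kb, 0.776 times that of the reference set, and ranged 26.0-fold from *Bbs10* to *Tulp3*. Against all genes of the table, with non-coding genes and those of lower means included, the ratio was 2.65, so the side of the median on which they lay depended on the reference. The median of the reference set was exceeded by 17 of the 51 (33.3%). Most cilium genes lay in the middle of the range: when the reference set was divided into quartiles, 7 fell in the lowest, 27 in the second, 17 in the third and 0 in the highest. The lowest gene was at percentile 7.70 and the highest at percentile 72.8. With the length of the canonical transcript in place of the summed exons, 5 were in the highest quartile and the percentiles ran from 9.71 to 84.3. The levels of single genes below use the summed exons, and several orders among them change with the length.

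**Figure D2:**
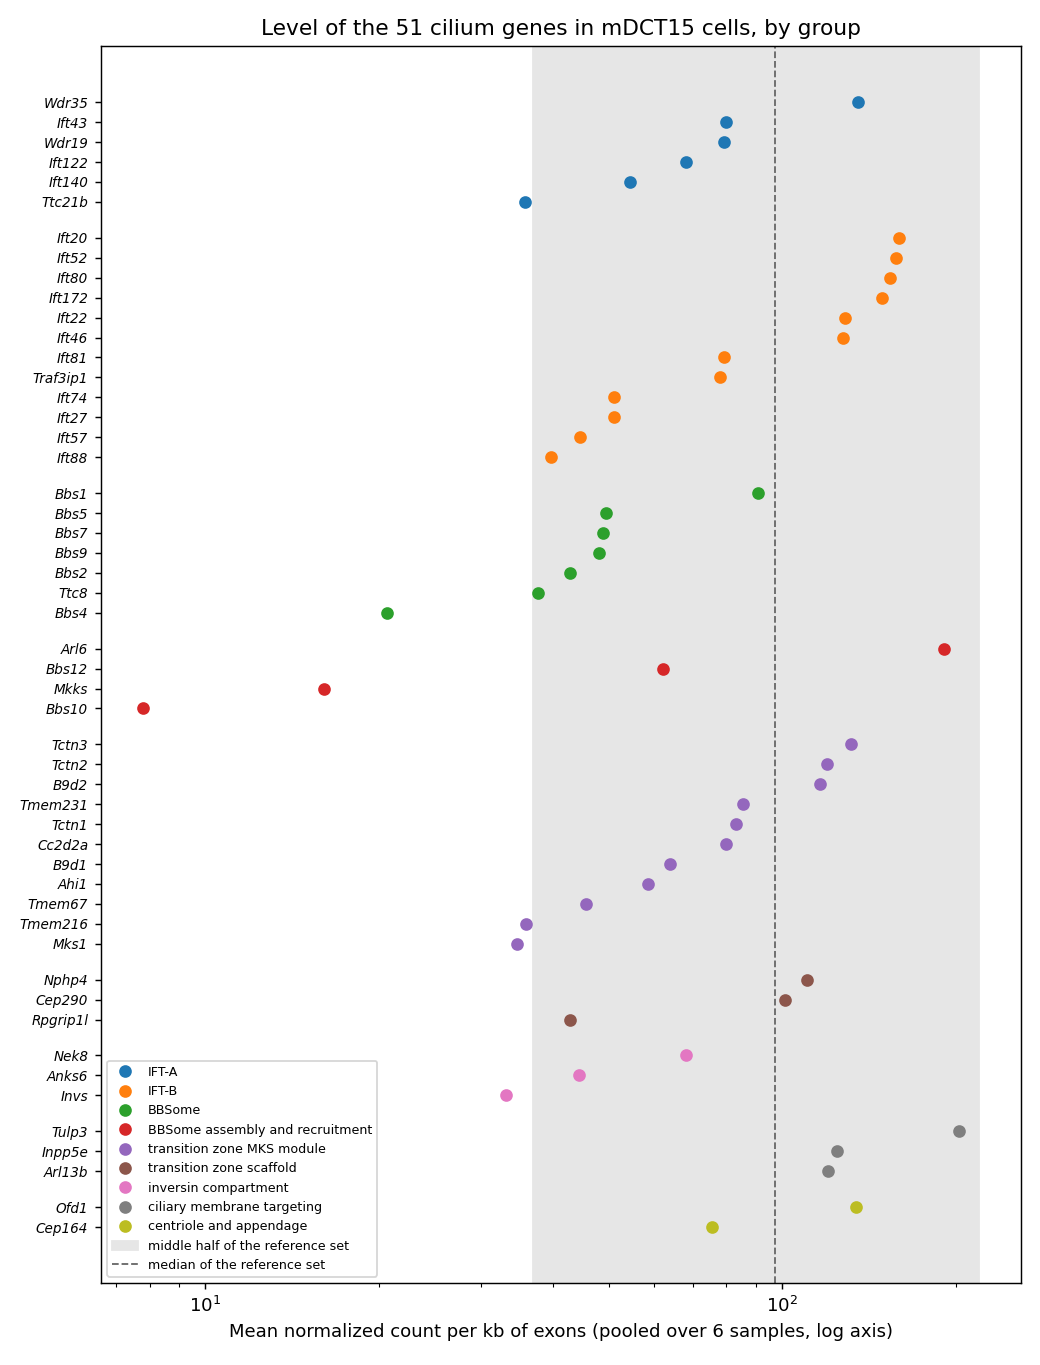
Level of each of the 51 cilium genes, by group, as the authors' mean normalized count over 6 samples divided by the exon length in kb, on a log axis. Each point is 1 gene, the dashed line is the reference median of 97.3 per kb and the shaded band runs between the quartiles of the reference set, 37.0 to 219 per kb. *Bbs10*, *Mkks* and *Bbs4* lie farthest below the band, and no gene lies above it.

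For the 12 listed genes of IFT-B, which carries tubulin and other cargo toward the tip, the median level was 103 per kb. Of these 12, 6 were above the reference median. The highest were *Ift20*, whose product also works at the Golgi in loading membrane cargo, at 160 per kb and *Ift52*, a core subunit, at 157. *Ift80* had 154 per kb and *Ift172*, the largest subunit of the complex, 149. The small GTPase gene *Ift22* and the core gene *Ift46* followed with 129 and 128. *Ift81* and *Ift74*, whose products together bind tubulin, had levels of 79.1 and 51.1 per kb, and *Traf3ip1* 78.0. The GTPase gene *Ift27* was at 51.1. Of the 12, the lowest were *Ift57* at 44.5 and *Ift88* at 39.7. *Ift88* is the gene whose partial loss gives polycystic kidneys in the orpk mouse, and its level stood 4.02-fold below that of *Ift20*. With the canonical transcript the highest of the 12 was *Ift80* (470 per kb) and the lowest *Ift57* (60.0). A comparison list of 7 further IFT and BBS genes had a median of 22.7 per kb, with 1 above the reference median. In that list, with summed exons, *Ttc30a1*, *Cluap1*, *Ttc30b* and *Hspb11* had 7.55, 16.5, 18.8 and 25.6 per kb, and *Ttc26* had 147.

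IFT-A, which carries trains back from the tip and brings membrane proteins in, had a median of 73.6 per kb, with 1 of 6 genes above the reference median, a count that became 3 with each of the other lengths tried. That gene was *Wdr35* at 135 per kb. Its partners *Ift43* and *Wdr19* had levels of 79.8 and 79.2 per kb. *Ift122* had 68.0, *Ift140* 54.5 and *Ttc21b*, a nephronophthisis gene, 35.9. The highest and lowest differed 3.77-fold. With the canonical transcript they differed 6.73-fold, and *Ift43*, at 519 per kb, stood above *Wdr35* at 293 and *Wdr19* at 143.

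The BBSome, the coat that moves membrane proteins out of the cilium, was below the reference median as a group under every length tried. So were the genes that assemble and recruit the BBSome, the MKS module and the inversin compartment, all described below. The median of the BBSome was 48.0 per kb, 0.494 times the reference median, and 0 of its 7 listed genes exceeded the reference median. *Bbs1*, whose product contacts the GTPase that brings the coat to the membrane, stood highest at 90.8 per kb. *Bbs5*, *Bbs7* and *Bbs9* lay close together at 49.4, 48.8 and 48.0. *Bbs2* had 42.9 and *Ttc8* 37.7, and *Bbs4* was the lowest at 20.6, 4.40-fold below *Bbs1*. With the canonical transcript *Ttc8* (164 per kb) and *Bbs7* (154) stood above *Bbs1* (131), and *Bbs4* stayed lowest at 50.2.

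The genes that assemble and recruit the BBSome were the most unequal group. *Arl6*, the GTPase that recruits it, had the second-highest level of all 51 genes, 191 per kb, while the chaperonin-like genes had 62.0 (*Bbs12*), 16.1 (*Mkks*) and 7.78 (*Bbs10*). *Mkks* and *Bbs10* were the lowest of all 51, and the group spanned 24.6-fold. With the canonical transcript *Arl6*, at 214 per kb, was no longer among the 10 highest, and the group spanned 12.4-fold. The percentile of *Arl6* in the reference set was 70.9 with summed exons and 54.7 with the canonical transcript. *Mkks* shares 968 bases of its exons, and *Bbs12* 67, with other genes on the same strand in the annotation used for lengths. If the annotation used for counting also held these overlaps, reads there may not have been counted for *Mkks* and *Bbs12*. Exons of 30 of the 51 cilium genes (58.8%) overlapped a gene on the opposite strand, against 63.2% of the reference set. Whether the strand setting of the counting matched the libraries is not given in the sources used here.

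In the MKS module of the transition zone, the median was 79.8 per kb and 3 of 11 genes were above the reference median. These were the tectonic genes *Tctn3* at 131 and *Tctn2* at 119 per kb and *B9d2* at 116. *Tctn1*, the remaining tectonic, had 83.0, next to the membrane protein gene *Tmem231* at 85.4 and *Cc2d2a* at 79.8. Although their products form a complex through shared B9 domains, *B9d2*, *B9d1* and *Mks1* had unequal levels of 116, 63.9 and 34.7. With the canonical transcript *B9d1* stood above *B9d2*, at 421 and 163 per kb, and *Mks1* stayed lowest at 57.1. The Joubert syndrome gene *Ahi1* had 58.5. *Tmem67* had 45.6 and *Tmem216* 36.0, so the membrane protein genes of the module differed among themselves as well.

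The scaffold genes of the transition zone had 110 per kb for *Nphp4*, 101 for *Cep290*, which links the microtubules to the membrane, and 42.8 for *Rpgrip1l*. The inversin compartment lies just above the transition zone. Its kinase gene *Nek8* had 68.1 per kb, and its scaffold genes *Anks6* and *Invs* had 44.5 and 33.3. Each of these genes causes cystic kidneys when lost, and all 3 were below the reference median.

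The 3 genes that target proteins to the ciliary membrane were above the reference median, but only *Tulp3* was above it with the canonical transcript as the length. *Tulp3*, an adaptor that hands receptors and polycystins to IFT-A, had the highest level of the 51 genes, 202 per kb or 2.08 times the reference median. *Inpp5e*, the phosphoinositide phosphatase of the cilium, had 124 and *Arl13b*, the GTPase that retains it there, 120. At the centriole, *Ofd1* had 134 per kb and *Cep164*, a distal appendage protein needed to dock the centriole, 75.5.

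The order of the genes depended on the length used. The annotation used for lengths was a different release from the one used for counting. In it, cilium gene exons were longer than the canonical transcript by a median factor of 2.16, against 1.67 in the reference set. With the canonical transcript as the length, a choice made after the data were seen, 960 of the 1275 pairs of cilium genes (75.3%) kept their order. *Bbs10*, *Mkks* and *Bbs4* remained among the 10 lowest, with *Ift88*, *Mks1* and *Ttc21b*. *Tulp3*, *Ift80*, *Ift52*, *Ift20* and *Wdr35* remained among the 10 highest. The 4 largest shifts were upward. *Ift43* went from percentile 44.0 to 81.2 of the reference set, *Ift27* from 31.9 to 75.4, *B9d1* from 37.9 to 75.9 and *Ift74* from 31.9 to 67.9. Neighbours in the order of levels given above should therefore not be read as different. All 7 BBSome genes and all 3 inversin compartment genes stayed below the reference median with the canonical, the longest and the median transcript length.

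**Figure D3:**
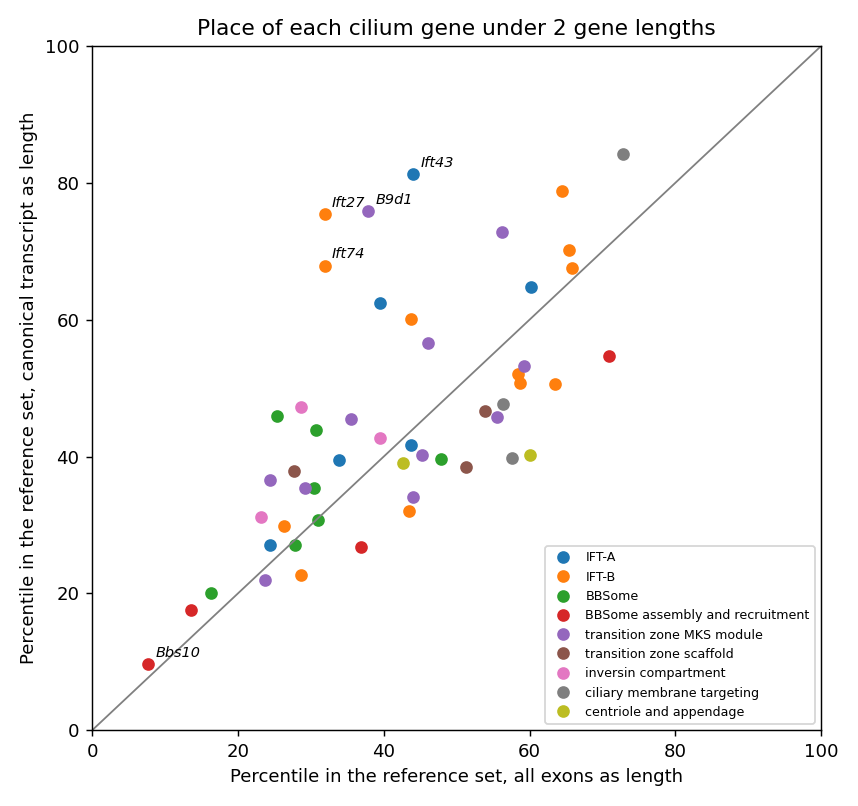
Percentile of each cilium gene within the reference set of 11835 genes, with all exons as the gene length (horizontal axis) and with the canonical transcript (vertical axis). Each point is 1 gene, coloured by group, and the line marks equal percentiles. *Ift43*, *Ift27*, *B9d1* and *Ift74* lie far above the line, and *Bbs10* is lowest on both axes.

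Other ciliary genes were read from lists for comparison. Of 10 genes for the motors of intraflagellar transport, 6 were above the reference median. Kinesin-II, which drives trains outward, had 160 per kb for *Kif3a*, 296 for *Kif3b* and 103 for *Kifap3*, while the accessory kinesin gene *Kif17* had 2.36. The heavy chain of the returning dynein, *Dync2h1*, had 74.3 and its light intermediate chain, *Dync2li1*, 294. With summed exons, the median of the motors was 102 per kb, close to the 103 of the 12 listed IFT-B genes. Levels of the motor genes ran from 2.36 for *Kif17* to 1227 for *Dynlrb1*. They were not computed with another length, while the IFT-B median was 225 with the canonical transcript. The polycystin genes *Pkd1* and *Pkd2* had 182 and 282 per kb. The *Pkd1* value averages edited and wild type cells and does not check the edit.

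Genes of motile cilia, which beat and are not found on tubule cells, were lower. Of 21 listed, 14 had a row, and 7 of these had a mean of at least 10. All 51 cilium genes did, without correction for length, but both lists were drawn up with earlier results of these data known. The median of the motile cilium genes was 2.66 per kb and 0 exceeded the reference median. The axonemal dynein gene *Dnah5* had a mean normalized count of 3.04 and the multiciliation regulator *Mcidas* 0.889. *Foxj1*, the regulator of motile cilia, had a mean of 144 and *Cfap43* one of 605. Of the RFX genes, *Rfx1*, *Rfx2*, *Rfx3*, *Rfx5* and *Rfx7* had means from 323 to 1840, and *Rfx4*, a brain and testis form, had 2.21.

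**Figure D4:**
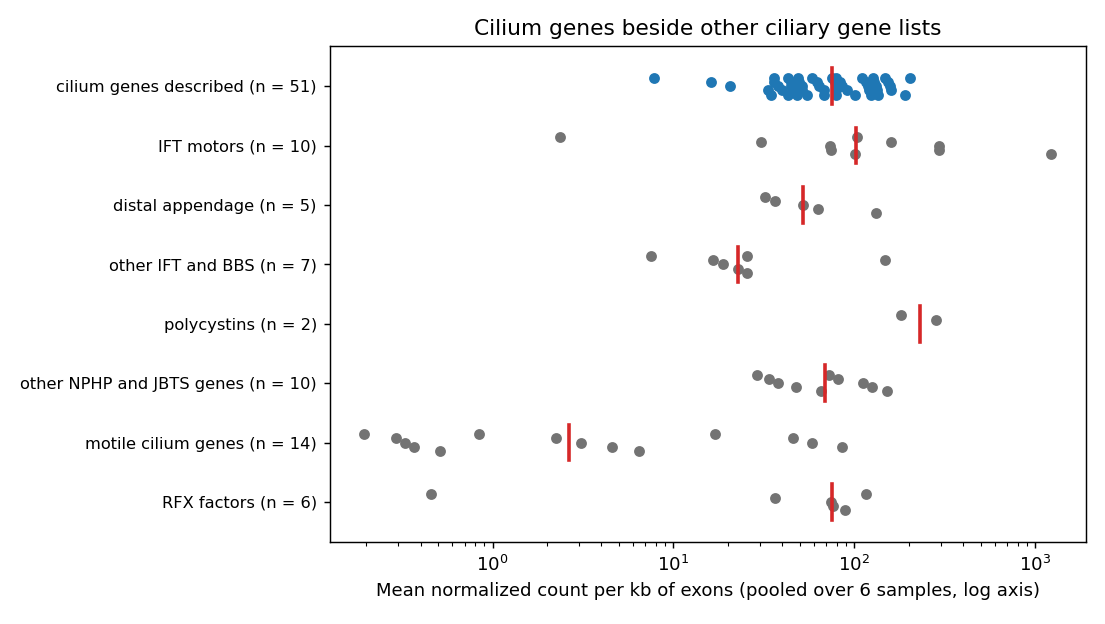
Level of the cilium genes (blue) beside other ciliary gene lists (grey), as the authors' mean normalized count over 6 samples per kb of exons, on a log axis. Each point is 1 gene and the red bar is the median of its list. The motile cilium genes have a median of 2.66 per kb, against 75.5 for the cilium genes.

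The labelled cell type was checked against its markers. *Slc12a3*, the sodium chloride cotransporter that defines the distal convoluted tubule, had no row in the table, and neither had *Pvalb*, *Calb1*, *Emx1* or *Sall3*, so 5 of the 10 markers listed for this segment had a row. The magnesium channel gene *Trpm6* had a mean normalized count of 29.6, *Klhl3* one of 5.70, and the kinase genes *Wnk1*, *Stk39* and *Wnk4*, which other cells also use, 8468, 621 and 413. The kidney epithelial genes *Pax8*, *Pax2* and *Cdh16* had means of 4905, 2428 and 4680, while the epithelial markers *Epcam* and *Krt8* had 115 and 0.980 and *Cdh1* and *Krt18* had no row. *Aqp1* and *Lrp2*, which mark the proximal tubule, had 11355 and 8826 and *Cubn* had 169, whereas the transporter genes *Slc34a1* and *Slc5a2* of that segment had 2.04 and 2.77. *Slc12a1* and *Umod* of the thick limb had no row, and of 9 genes listed for the collecting duct and connecting tubule 3 had one, *Scnn1a* with 54.1, *Aqp3* with 1.95 and *Scnn1g* with 0.618. The fibroblast genes *Col1a1*, *Pdgfrb* and *Col1a2* had 201, 4.48 and 2.71. The immune markers *Ptprc* (5.36) and *Cd68* (41.9) and the endothelial marker *Pecam1* (4.68) were low. The part of these markers in the levels of the cilium genes was not tested. In RNA of whole cultures, fewer cells expressing a gene and less RNA per cell cannot be told apart.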

How the data were processed

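RNA of 3 *Pkd1*-/- and 3 wild type mDCT15 samples was sequenced. Per the paper's methods and the submitters' processing notes, reads were trimmed (Trim Galore 0.4.5), aligned by the authors to GRCm39 (STAR 2.7.5a, Ensembl 105), assigned to genes (HTSeq 0.11.0, default settings) and normalized (DESeq2 1.22.0, R 3.5.3). The deposited table gives a signal per gene, the authors' mean over 6 samples of counts divided by size factors. Its 5 other numeric columns, the authors' own comparison of the genotypes (log2 fold changes, standard errors, statistics and p-values), were not used. The planned genotype test needed values of single samples and was not run. The methods name a minimum count, yet 1257 genes have a mean under 1.

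The mean was divided by exon length from GENCODE on GRCm39, where 20122 identifiers (97.6%) were found and 116 more were matched by symbol, *Tctn2* among them. The reference set required a mean of at least 10. By the naming rule, values were given for every gene of groups of up to 8 and the highest and lowest 2 of larger groups; the other values of IFT-B and the MKS module were added after they were seen. The members and lists were chosen with earlier results of these data known. The site search was tested on simulated data. Alternatives covered the length, the reference set, overlapping genes and the match rule. Python 3.11.15, numpy 2.4.6, pandas 2.3.3 and matplotlib 3.10.9 were used.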

Additional observations from a re-analysis of the deposited data

How the results depend on the processing

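Of 49 alternatives, 39 left the value within 1.5 times that reported and 10 did not; the cause was not tested. The median level of the cilium genes over the reference median was 2.65 with all genes of the table as the reference, and from 0.762 to 0.881 with other lengths. The count above the reference median was 12 and 25 with a minimum mean of 100 and of 1. For groups, the ratio to the reference median was 1.14 for IFT-A with the longest transcript. With the median transcript length it was 0.251 for BBSome assembly and recruitment, 0.802 for ciliary membrane targeting and 1.73 for the centriole pair. With the canonical transcript, chosen after seeing the data, it was 0.674 for the scaffold, 0.793 for the inversin compartment and 0.711 for the centriole pair. Without genes that overlap another, the inversin compartment was at 0.700. The MKS module then stood above the reference median, at 1.02 against 0.820 with all its genes, a change within 1.5 times. X-box matches rose from 6 genes to 17 with 1 mismatch. Leaving out overlapping genes gave no value for the scaffold or for BBSome assembly and recruitment. The planned genotype alternatives (replicate block, leaving out replicates, other normalizations) were not run. No paired analysis was possible because the values used are means over all samples, so the replicate spread and the depth of each sample are unknown.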

Other observations

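Within 1 kb upstream of their own start site, 7 of the 51 cilium genes (13.7%) had that of a protein-coding gene transcribed in the opposite direction. In the reference set the share was 5.44%. Start sites were the outer ends of the annotated genes, and pairs of genes whose starts overlap were not counted. *Ift80* and *Smc4*, a condensin gene, start 24 bases apart, *Nek8* and *Tlcd1* 23, *Ift46* and *Arcn1* 58 and *Ift122* and *Mbd4* 70. The mean normalized count was 7564 for *Smc4* and 3.12 for *Entpd1*, the partner of *Tctn3*. This difference in share was not tested.

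The CCAAT sequence, on either strand, occurred in the promoter windows of 28 of 46 cilium genes (60.9%), against 43.8% of the 9505 reference genes with a window. The windows of the cilium genes had a median GC content of 59% and 21 CpG dinucleotides, near the 61.3% and 22 of that set. With summed exons, the cilium genes with an X-box without a mismatch had a median level of 53.7 per kb (34.7 to 131, 6 genes). Those without had 78.6 (7.78 to 202, 40 genes). With the canonical transcript the 6 genes lay on both sides of the median of all cilium genes, 147 per kb. *Tctn3* (204), *Ahi1* (161) and *Bbs7* (154) were above it, and *Tctn1* (134), *Ift57* (60.0) and *Mks1* (57.1) below. The difference was not tested.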
